A study of Mus musculus with 4 samples.

Results

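The genes described here encode chaperones of the endoplasmic reticulum (ER), components of the unfolded protein response and heat shock proteins. They were listed by name and known function, 40 genes in all. The list was chosen with earlier results of these data known, and measured signal picked the probe set of each gene. The array annotation gave 38 of them at least 1 probe set assigned to no other gene, among 18193 genes named in that way, and Hsp90ab1 and Hsf1 were not analysed here. Each gene was read from its probe set with the highest mean log2(signal + 16) over the 4 arrays, the signal being a linear intensity, and all 38 passed the filter on dim probe sets.

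RNA was measured in C2C12 cells, a mouse myoblast line, in 2 cultures of an SFMBT1 knock-down and 2 cultures of a vector control, with 1 Affymetrix array per culture. The knock-down cells carried the lentiviral vector pLKO.1 with a short hairpin RNA named shSFMBT1, aimed at Sfmbt1, the gene of an MBT-repeat protein that acts on chromatin. The control cells carried pLKO.1 with a hairpin that one label calls scramble and another shLuc. All cultures were stable lines kept under puromycin in medium with fetal bovine serum, and a single hairpin against Sfmbt1 is named. Cultures are described as biological replicates grown independently. Nothing in the labels says that they came from separate transductions. If the cultures of a group came from 1 transduction, p-values measure only the spread between cultures of 1 line.

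The ER folds and modifies secreted and membrane proteins with the help of chaperones and of enzymes that form disulfide bonds. When unfolded proteins accumulate, the sensors IRE1, PERK and ATF6 start the unfolded protein response: IRE1 splices Xbp1 mRNA, PERK slows translation while favouring that of ATF4, and ATF6 is cleaved to release a transcription factor. In the cytosol a separate programme, the heat shock response driven by HSF1, raises HSP70, HSP90 and their partners. Differentiating myoblasts are known to pass through a phase of ER stress signalling. The arrays measured RNA abundance only, so splicing of Xbp1, translation of Atf4 and cleavage of ATF6 were not measured.

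Median signal was 92.8 to 101.1 on the knock-down arrays and 97.8 to 102.7 on the control arrays. The background limit, taken from the 27 probe sets for bacterial RNAs, was 69.3 and 42.9 on the knock-down arrays, against 49.1 and 53.2 on the control arrays. Knock-down replicate 1 had the highest limit. There 56.2% of probe sets lay above it, against 64.3% to 67.6% on the other arrays. All 5 probe sets of Sfmbt1 were lower in the knock-down with no overlap between the groups, and 1 of the 5 lay in the background range on all 4 arrays. The one with the highest mean gave 166 and 252 in the knock-down, against 256 and 362 in the control (log2 -0.54, limma adjusted p = 0.316), and 1 of the 5 was called lower when every probe set was tested (adjusted p = 0.0219). In that probe set knock-down replicate 2 lay in the background range, and with the limit in its place the difference of the log2(signal + 16) means came to 3.77-fold. The myoblast genes Myod1, Myf5, Des, Cdh15, Chrna1, Itga7 and Ncam1 were above background on all 4 arrays and none of these 7 passed the test. Of 8 markers of differentiating muscle 7 were higher in the knock-down, with summed signals of 6435 to 6835 in the knock-down and 1381 to 1730.5 in the control, and their part in the values below was not tested. Among markers of other cells, Pecam1, Ptprc, Cd3e, Cdh1 and Adipoq lay in the background range on all 4 arrays. In contrast, Pdgfra, Thy1, Kdr, Cd68, Adgre1, Epcam and Krt8 were above background on all 4 arrays. These were 2 of 4 fibroblast, 1 of 3 endothelial, 2 of 4 leukocyte, 2 of 4 epithelial and 0 of 2 adipocyte markers. Epcam gave 580.5 and 805.5 in the knock-down and 580 and 312 in the control. No gene of the fibroblast, endothelial, leukocyte, epithelial and adipocyte lists was called. Sums of the adipocyte list were higher in the knock-down, 156 to 160.0 against 79.8 to 126 in the control. Those of the epithelial list overlapped, 894 to 1123 in the knock-down and 573 to 977 in the control. In cultures measured as a whole, fewer cells with an RNA and less of it per cell cannot be told apart.

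None of the 38 genes was called higher or lower when Sfmbt1 was knocked down. Across all 12866 genes tested with limma, 3.05% were called at a p under 0.05 after Benjamini-Hochberg adjustment over all of them, 1.44% higher (185 genes) and 1.61% lower (207 genes); with each array centred on its median the calls were 374 higher and 218 lower. An unadjusted p under 0.05 was reached by 10 of the 38 members, 4 with a positive and 6 with a negative difference, where 15.0% of all genes reached it. The 2 groups of arrays did not overlap in 21 members, 12 above and 9 below the control, and in 44.5% of all genes. Over the members the median log2 difference, knock-down minus control, was 0.02, and over all genes it was 0.01. The median absolute difference was 0.16 over the members and 0.19 over all genes.

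In the brightest probe sets the differences were also bounded in size. For 36 of the 38 members, read in this way, the 95% interval stayed within a 2-fold change either way. In log2 units this is within 1 of 0 on both sides. The exceptions were Atf3 and Hspa1a. The bound did not hold for every dimmer probe set of the remaining members. Intervals of such probe sets ran from -1.26 to -0.30 in Ddit3 and from 0.33 to 1.05 in Dnajc3. Of all 12866 genes tested, 10091 had an interval within a 2-fold change either way. For 28 members the interval lay within a 1.5-fold change either way, as it did for 5607 of all genes tested. Such an interval is not adjusted for the number of genes and rests on 2 arrays per group. Members differed between the arrays of 1 group by a median of 0.15 log2 units in the knock-down and 0.10 in the control. Over all genes tested these medians were 0.21 and 0.18. Most members had signals far above the array medians given above, and the fit ties interval width to signal. The standard error was 0.11 for the bright Calr and 0.46 for the dim Hspa1a. The part of brightness in the comparisons with all genes was not tested.

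**Figure D1:**
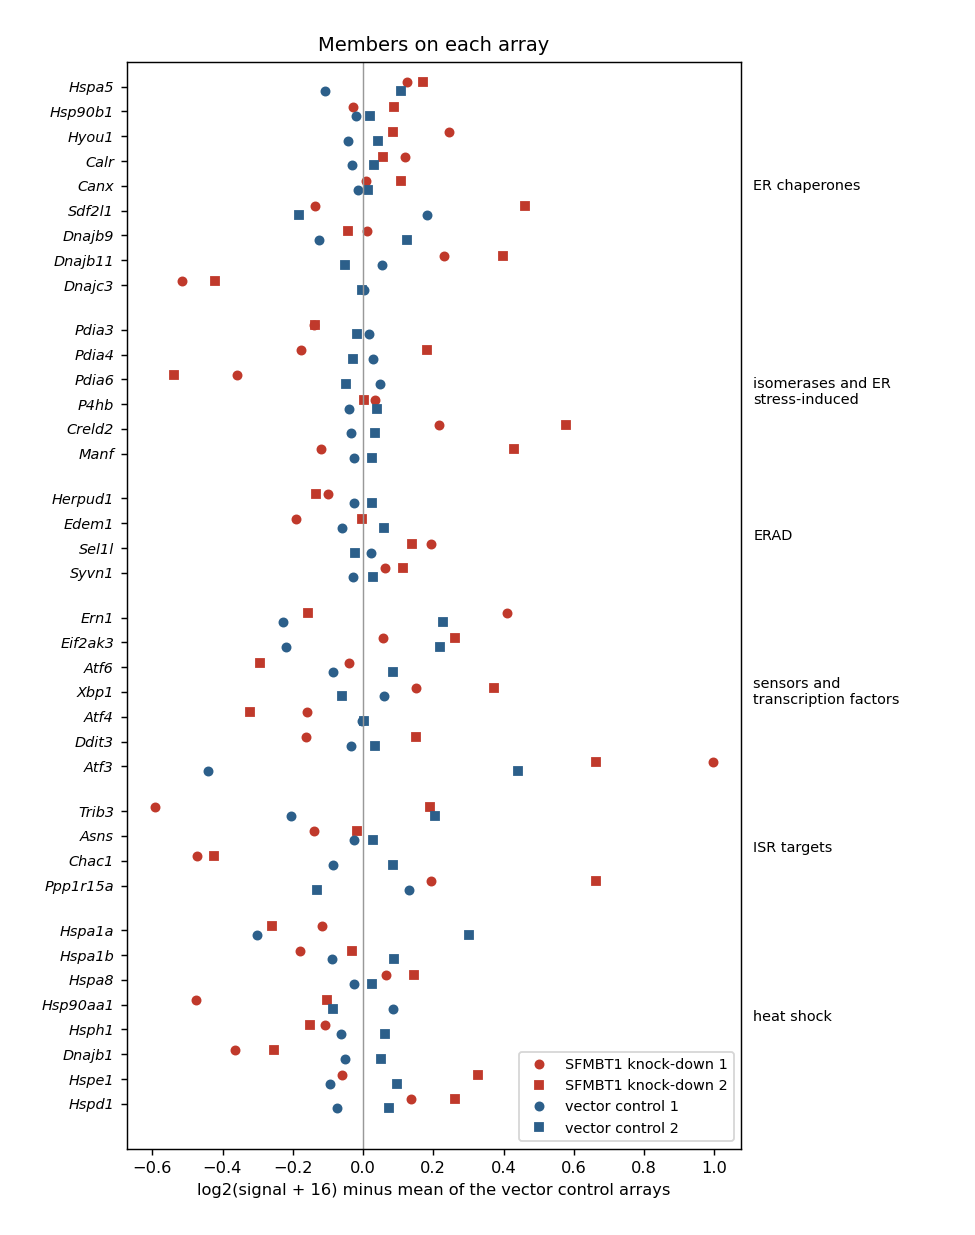
Log2(signal + 16) of the 38 members on each of the 4 arrays, less the mean of the 2 vector control arrays (x axis, log2 units), with a gene per line grouped by role. Red points are knock-down cultures and blue points vector control cultures; most members stay within 0.5 units of the control mean on every array, and Atf3 lies farthest to the right.

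**Figure D2:**
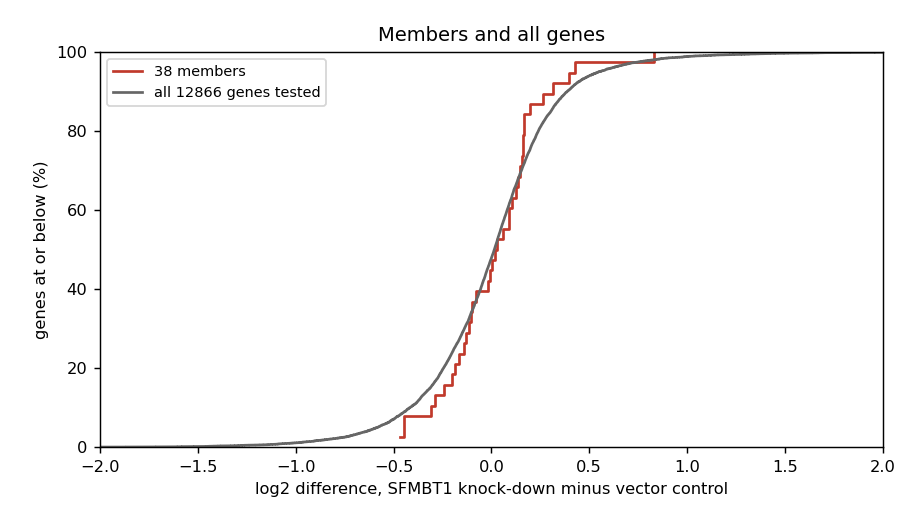
Cumulative share of genes (y axis, percent) by log2 difference of knock-down minus vector control (x axis, drawn from -2 to 2) for the 38 members in red and all 12866 tested genes in grey. Both curves cross the middle near 0, with medians of 0.02 and 0.01.

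Among the ER lumen chaperones and the lectins that hold glycoproteins for folding, 0 of 9 were called, 7 differences were positive and 2 negative, and the median was 0.09. Hspa5 encodes BiP, the HSP70 of the ER and the main reporter of ER stress. Its signal was 8748 and 9031 in the knock-down, against 7443 and 8640 in the control. Both knock-down arrays lay above both control arrays, but the log2 difference was only 0.15 (95% interval -0.10 to 0.40, adjusted p = 0.615), and its other 2 probe sets gave 0.13 each. The ER HSP90 gene Hsp90b1 differed by 0.03 in the brightest probe set and by 0.28 in the second, which gave 6372 and 7252 in the knock-down, against 5483 and 5740 in the control, without overlap (adjusted p = 0.284). The lectin chaperone genes Calr and Canx differed by 0.09 and 0.06 in their brightest probe sets. Hyou1, a large HSP70-like exchange factor for BiP, differed by 0.16 in the brightest probe set but by -0.29 and -0.51 in the other two. Sdf2l1, a stress-induced partner of ER J-proteins, differed by 0.16 and Dnajb9, a J-protein co-chaperone of BiP, by -0.02.

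Dnajb11 and Dnajc3, also J-protein partners of BiP, lay at opposite ends of the group in their brightest probe sets. Dnajb11 gave 973 and 1095 in the knock-down, against 858 and 796.5 in the control (log2 0.32, interval 0.00 to 0.63, adjusted p = 0.327). Dnajc3, which encodes the protein P58IPK, gave 683 and 731 in the knock-down, against 985 and 981 in the control (log2 -0.47, interval -0.78 to -0.16, adjusted p = 0.112). The knock-down arrays were the higher pair for Dnajb11 and the lower pair for Dnajc3. The remaining 4 tested probe sets of Dnajc3 differed the other way, by 0.29, 0.31, 0.47 and 0.69. The last of these gave 681 and 732 in the knock-down, against 390 and 478 in the control, with an adjusted p of 0.0550 over 22893 probe sets. The direction for Dnajc3 therefore depends on the probe set, and the mean over its 5 probe sets differed by 0.26 (adjusted p = 0.490).

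Promoters of many of these genes hold the ER stress response element (ERSE), bound by ATF6 with NF-Y, and the stretches that carry it are shown to set the element beside the values. The element was searched on both strands as CCAAT and CCACG separated by 9 bases, in the 250 bases before each start in the RefSeq promoter table of GRCm38.p6, and it includes a CCAAT box. It was found in 8 of the 33 members with a promoter in that table (24.2%) and in 35 of 27025 genes (0.13%). Capitals mark the 2 parts of the element or their reverse complement.
Hspa5, chr2:34772013-34772055, plus strand: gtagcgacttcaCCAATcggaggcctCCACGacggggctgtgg
Calr, chr8:84847063-84847105, minus strand: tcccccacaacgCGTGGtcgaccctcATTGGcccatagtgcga
Creld2, chr15:88819508-88819550, plus strand: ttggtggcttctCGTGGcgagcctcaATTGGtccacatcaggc
Dnajc3, chr14:118937815-118937857, plus strand: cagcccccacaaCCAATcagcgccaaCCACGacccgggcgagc
Pdia6, chr12:17266479-17266521, plus strand: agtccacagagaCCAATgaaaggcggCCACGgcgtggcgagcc
The other members with the element were Hsp90b1, which had 2 copies, Canx and Syvn1. In the brightest probe sets of these 8 genes 6 differences were positive and 2 negative, between -0.47 for Dnajc3 and 0.40 for Creld2, and 0 of 8 were called. Of the 2 negative ones, that of Dnajc3 depends on the probe set, its mean over probe sets being 0.26, and that of Pdia6 was -0.45. Of the positive ones, Canx also had probe sets of both signs, between -0.03 and 0.06, and Hsp90b1 differed by only 0.03. Herpud1 held the related ERSE-II, ATTGG and CCACG separated by 1 base, which 0.037% of all genes held. The shorter element TGACGTGG, which XBP1 and ATF6 can bind, was in 0 of the 33 members and 0.603% of all genes. A match in letters is no evidence of binding, and no match says only that the letters are not in this window.

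Protein disulfide isomerases and small ER proteins induced by stress were split, with 0 of 6 called and a median of 0.01. Pdia6, which encodes an isomerase that attenuates IRE1 signalling, gave 2153 and 1899 in the knock-down, against 2859 and 2676 in the control. Both knock-down arrays were the lower pair (log2 -0.45, interval -0.72 to -0.18, adjusted p = 0.0770), and its second probe set differed by -0.40 with overlapping groups. This was the smallest adjusted p among the members. Creld2, an ER protein with EGF-like domains that is a sensitive target of the unfolded protein response, gave 960 and 1238 in the knock-down, against 805 and 844 in the control. Its knock-down arrays were the higher pair (log2 0.40, interval 0.07 to 0.73, adjusted p = 0.228). The isomerase genes Pdia3, Pdia4 and P4hb differed by -0.14, 0.00 and 0.02. Manf, which encodes a secreted ER stress-responsive neurotrophic factor, gave 2695 and 3948 in the knock-down, against 2878 and 2979 in the control, so that a single knock-down array was high (log2 0.16). Pdia6 and Creld2 passed when knock-down replicate 1 was left out, at -0.54 (adjusted p = 0.0193) and 0.58 (adjusted p = 0.0344).

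ER-associated degradation sends misfolded proteins back to the cytosol for destruction by the proteasome, and 0 of its 4 genes were called. Herpud1, which encodes a stress-induced membrane protein of the degradation complex, differed by -0.12. Sel1l and Syvn1, the adaptor and the ubiquitin ligase of that complex, differed by 0.17 and 0.09. Edem1, a mannosidase-like protein that picks out glycoproteins for degradation, differed by -0.10 in the brightest probe set, and by -0.53 in the second, which gave 304 and 360 in the knock-down, against 485 and 483 in the control (adjusted p = 0.159). The 5 probe sets of Sel1l ranged between -0.37 and 0.45, with 4 positive and 1 negative. In the brightest probe sets all 4 intervals of the degradation genes lay within a 1.5-fold change either way. Some dimmer probe sets reached past it. The interval was -0.91 to -0.15 in the second probe set of Edem1. In the probe sets of Sel1l with the highest and lowest differences it was 0.09 to 0.81 and -0.79 to 0.05.

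**Figure D3:**
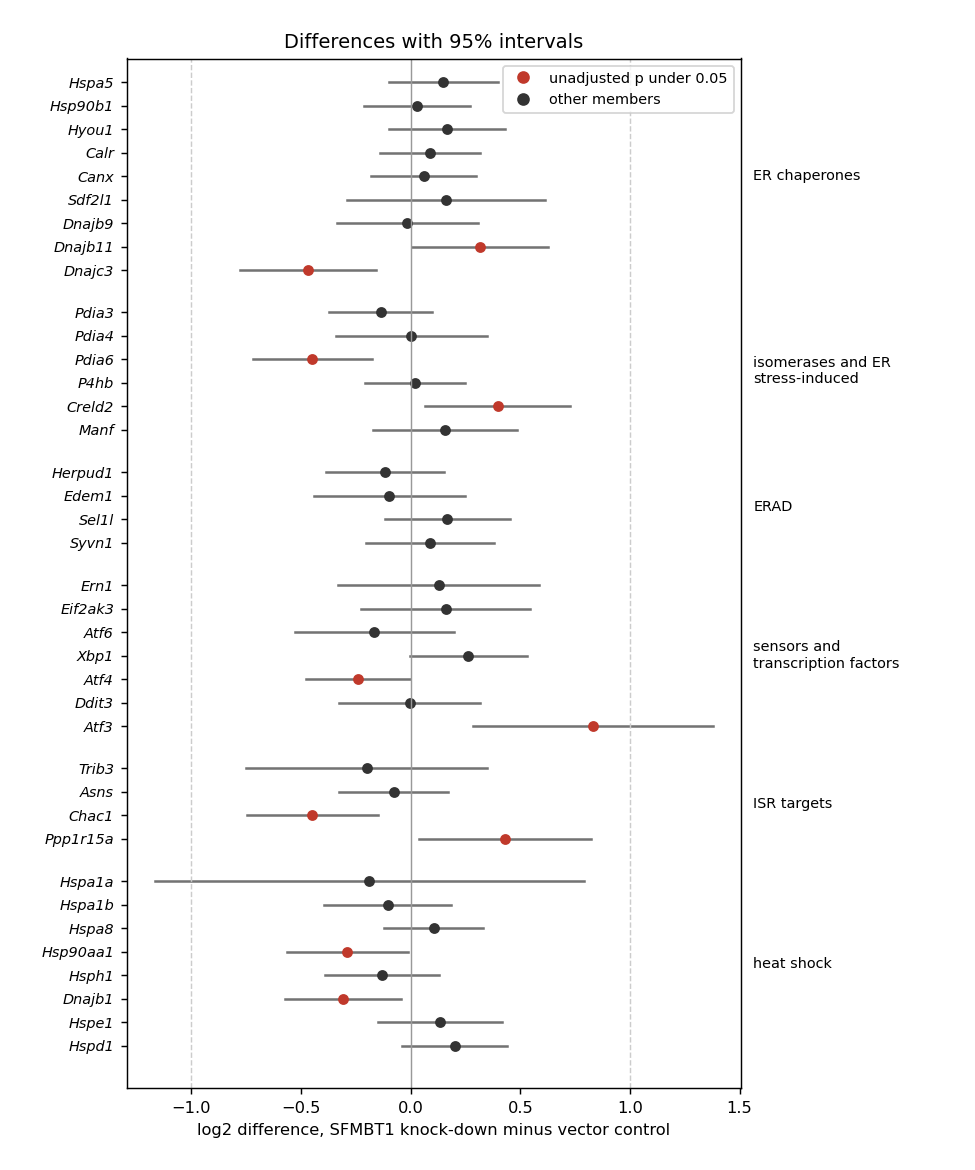
Log2 difference of knock-down minus vector control (x axis) for the 38 members with 95% intervals as horizontal bars; dashed lines mark a 2-fold change either way, and red points have an unadjusted p under 0.05. Each gene is shown by its brightest probe set. Among these the intervals of Atf3 and Hspa1a alone cross a dashed line, and 0 members passed at an adjusted p under 0.05.

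Of the 7 genes for sensors and transcription factors 0 were called, with 4 positive and 3 negative differences and a median of 0.13. The sensor genes Ern1 (IRE1), Eif2ak3 (PERK) and Atf6 differed by 0.13, 0.16 and -0.17 in their brightest probe sets, with overlapping groups in each. Of the other tested probe sets, 2 of Ern1 gave -0.44 and -0.58 without overlap and 1 gave 0.22 with overlap, while those of Atf6 gave -0.44 without overlap and -0.01 with overlap. The smallest adjusted p among these was 0.333. Atf4, the transcription factor whose translation PERK favours, gave 10057 and 8993 in the knock-down, against 11219 and 11250.5 in the control. The knock-down arrays were the lower pair, the log2 difference was -0.24 (interval -0.48 to 0.00, adjusted p = 0.330) and a second probe set gave -0.04 with overlapping groups. Ddit3 encodes CHOP, a factor linked to cell death in prolonged ER stress, and gave 877 and 1093 in the knock-down, against 959 and 1006 in the control. The control arrays lay between the knock-down arrays (log2 0.00 to 2 decimals, interval -0.33 to 0.32, adjusted p = 0.993). A dimmer probe set of Ddit3 gave 150 and 193 in the knock-down, against 316 and 292 in the control (log2 -0.78, adjusted p = 0.0976), so its 2 probe sets do not give the same size.

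Xbp1, the factor whose RNA IRE1 splices, had 4 probe sets, all with positive differences. The brightest gave 3420 and 3993 in the knock-down, against 3207 and 2953 in the control, with the knock-down arrays the higher pair (log2 0.26, interval -0.01 to 0.53, adjusted p = 0.345). In the other 3 probe sets the differences were 0.32, 0.51 and 0.64, and the knock-down arrays were the higher pair in all 4. The probe set with 0.64 gave 1593 and 1648 in the knock-down, against 1186 and 907 in the control, with an adjusted p of 0.0533 over every probe set, where 2.39% of probe sets were called. That value also missed the threshold.

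Atf3, a stress-induced repressor of the ATF family, had the largest difference of any member. It gave 434 and 342 in the knock-down, against 150 and 290 in the control (log2 0.83, interval 0.28 to 1.38, adjusted p = 0.111). The knock-down arrays were the higher pair, but on the log2 scale the control arrays differed from each other by more than the group means did. Without control replicate 2 the difference was 1.27 (adjusted p = 6.63e-04), and without control replicate 1 it was 0.39 (adjusted p = 0.674). Without knock-down replicate 2 it was 1.00 (adjusted p = 0.00572), so Atf3 passed or missed the test with the arrays used.

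Targets of the integrated stress response, which ATF4 drives in amino acid shortage and ER stress, gave 0 calls among 4 genes and a median of -0.14. Chac1 encodes a glutathione-degrading enzyme and is a sensitive target of ATF4. It gave 946 and 977.5 in the knock-down, against 1243 and 1398 in the control. The knock-down arrays were the lower pair (log2 -0.45, interval -0.75 to -0.15, adjusted p = 0.113), and with quantile normalization the adjusted p was 0.0464. Ppp1r15a encodes GADD34, the phosphatase subunit that restores translation, and gave 565.5 and 788 in the knock-down, against 540 and 448 in the control. Its knock-down arrays were the higher pair (log2 0.43, interval 0.04 to 0.82, adjusted p = 0.280), and without knock-down replicate 1 the difference was 0.66 (adjusted p = 0.0276). The asparagine synthetase gene Asns differed by -0.08 and the pseudokinase gene Trib3 by -0.20, both with overlapping groups; a second probe set of Trib3 gave -0.50 without overlap (adjusted p = 0.312).

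ATF4 and its partners bind a C/EBP-ATF composite element, searched as TGATGNAA on both strands in the same windows. It was found in Atf3, Chac1, Asns and Herpud1, 4 of the 33 members (12.1%), and in 3.91% of all genes. The stretches of Atf3 and Chac1 are shown because these genes had the largest differences of opposite sign among them, 0.83 and -0.45, neither of which passed, with capitals marking the element as read on the reverse strand.
Atf3, chr1:191183424-191183455, minus strand: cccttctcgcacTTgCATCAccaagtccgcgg
Chac1, chr2:119351037-119351068, plus strand: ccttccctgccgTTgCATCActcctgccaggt
The 4 genes with the element had 1 positive and 3 negative differences, and none of these 4 was called.

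Among heat shock proteins of the cytosol and mitochondria 0 of 8 were called, with 3 positive and 5 negative differences and a median of -0.12. Hspa1a and Hspa1b encode the stress-inducible HSP70 and are near-identical copies, so their probe sets may detect both. Hspa1b gave 1440 and 1596 in the knock-down, against 1535 and 1735 in the control (log2 -0.11, interval -0.39 to 0.18, adjusted p = 0.794), and its 3 probe sets ranged between -0.12 and -0.08. Hspa1a gave 66.7 and 58.9 in the knock-down, against 56.8 and 94.5 in the control. The groups overlapped in both genes, and the Hspa1a signal in knock-down replicate 1 lay in the background range. Its interval was the widest of the members (log2 -0.19, interval -1.17 to 0.79).

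The inducible HSP90 gene and a J-protein gene had lower signals in the knock-down but did not pass. Hsp90aa1 gave 11078 and 14349 in the knock-down, against 16333 and 14528 in the control (log2 -0.29, interval -0.56 to -0.01, adjusted p = 0.305). Without knock-down replicate 2 the difference was -0.475 (adjusted p = 0.0264), and its other 3 tested probe sets gave -0.18, -0.06 and 0.06. Dnajb1, which encodes the main HSP40 partner of HSP70, gave 2370 and 2563 in the knock-down, against 2951 and 3167 in the control. The knock-down arrays were the lower pair (log2 -0.31, interval -0.57 to -0.05, adjusted p = 0.238), with quantile normalization the adjusted p was 0.0395, and a second probe set gave -0.02. Hsph1, an HSP110 exchange factor, differed by -0.13 and by -0.20 in its second probe set.

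The constitutive HSP70 gene Hspa8 and the mitochondrial chaperonin genes were the heat shock members with positive differences. Hspa8 gave 23535 and 24887 in the knock-down, against 22132 and 22895 in the control (log2 0.10, interval -0.12 to 0.33, adjusted p = 0.724). Its other 3 probe sets gave 0.14, 0.20 and 0.65, and the dimmest of these, with 248 and 276 in the knock-down, against 143 and 180 in the control, had an adjusted p of 0.185. Hspd1 (HSP60) and Hspe1 (HSP10), which form the mitochondrial chaperonin, differed by 0.20 and 0.13, and a second probe set of Hspe1 by 0.35 without overlap (adjusted p = 0.279). The pair is transcribed from a shared promoter in opposite directions. Its heat shock half-site pair, GAANNTTC, is shown as it reads from each gene, beside that of Hspa1b, with capitals marking the fixed letters. The pair of half-sites was in 5 of the 33 members (15.2%) and in 7.73% of all genes; in Asns it overlaps the composite element.
Hspd1, chr1:55088052-55088083, minus strand: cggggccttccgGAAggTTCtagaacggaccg
Hspe1, chr1:55088052-55088083, plus strand: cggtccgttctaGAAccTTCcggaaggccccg
Hspa1b, chr17:34959323-34959354, minus strand: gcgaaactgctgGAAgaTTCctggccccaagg
The same letters as in Hspa1b stand in the promoter of Hspa1a. Hspd1, Hspe1 and Hspa1b differed by 0.20, 0.13 and -0.11, each with an interval that includes 0.

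**Figure D4:**
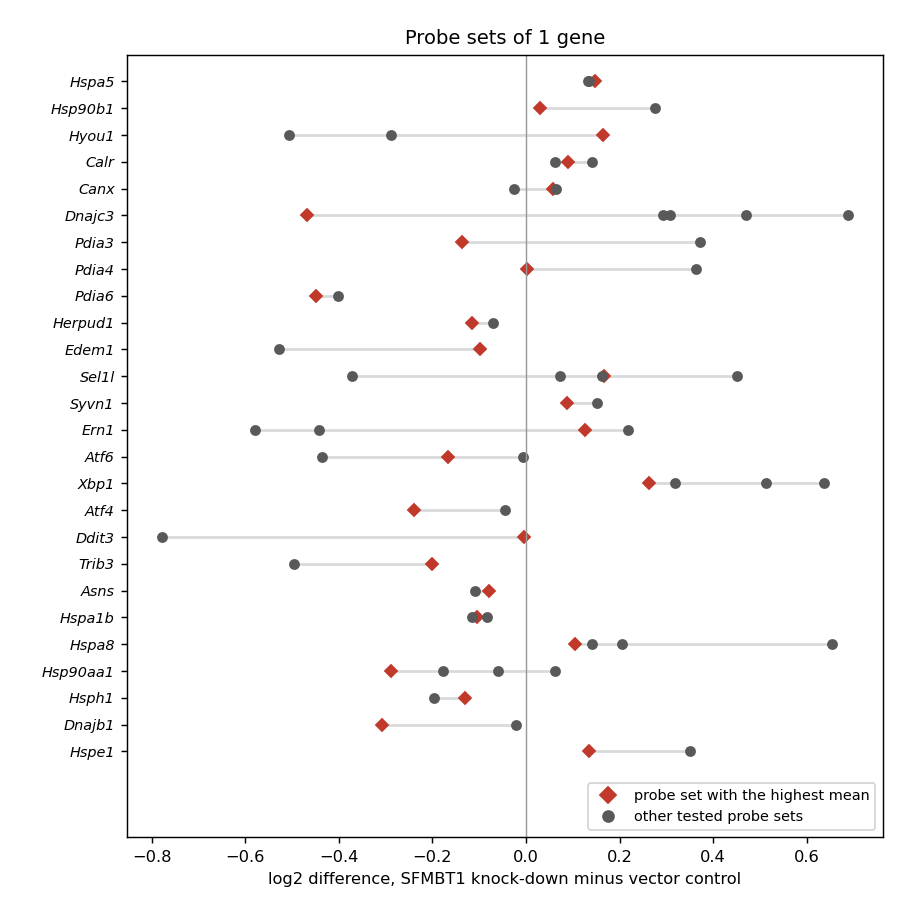
Log2 difference of knock-down minus vector control (x axis) for every tested probe set of the 26 members with more than 1, with a red diamond for the probe set of highest mean and grey points for the others. Hspa5, Hsp90b1, Calr, Pdia4, Syvn1, Xbp1, Hspa8 and Hspe1 have all points right of 0. Pdia6, Herpud1, Edem1, Atf6, Atf4, Ddit3, Trib3, Asns, Hspa1b, Hsph1 and Dnajb1 have all points left of 0. The diamond of Dnajc3 lies left of its other 4 points.

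Agreement between probe sets of 1 gene set a limit to these readings. The 38 members had 89 probe sets, of which 84 passed the filter, and 0 of the 84 were called when every probe set was tested. Of 26 members with more than 1 tested probe set, 7 had differences of both signs, Hyou1, Canx, Dnajc3, Pdia3, Sel1l, Ern1 and Hsp90aa1. Probe sets can read different transcript ends or isoforms, which was not tested.

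Other genes of these pathways were read from 5 lists with the members left out, 203 genes named on the array of which 199 were tested. Of these 3 were called higher and 5 lower, beside the 1.44% and 1.61% of all genes given above, and the median difference over the 199 was 0.04. Translocation, folding and glycan processing in the ER gave 1 higher and 1 lower of 48, with 35 positive differences and a median of 0.13. ER-associated degradation gave 1 higher and 1 lower of 29, with 20 positive differences and a median of 0.02. Cytosolic and mitochondrial chaperones gave 1 higher and 1 lower of 57, with 32 positive differences and a median of 0.05. Further sensors and partners of the unfolded protein response gave 0 higher and 1 lower of 23, with 13 positive differences and a median of 0.01. Further ATF4 targets gave 0 higher and 1 lower of 42, with 20 positive differences and a median of -0.01. Over all 12866 genes tested, 6710 differences were positive.

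Derl3, which encodes a derlin of the ER degradation channel, rose to 185.5 and 178 in the knock-down, against 55.5 and 39.4 in the control (log2 1.65, interval 0.87 to 2.43, adjusted p = 0.0216). Control replicate 2 lay in the background range, and with the background limit in its place the difference of the log2(signal + 16) means came to 2.81-fold. Ube2j1, the ER-anchored ubiquitin-conjugating enzyme, fell to 992 and 1108 in the knock-down, against 1858 and 1628 in the control (log2 -0.72, adjusted p = 0.0099), with -0.29 in its second probe set. These 2 degradation genes thus moved in opposite directions. Without knock-down replicate 1 the adjusted p of Derl3 was 0.0613, and without control replicate 1 that of Ube2j1 was 0.0781.

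In the secretory pathway, Tmx1, a membrane-bound thioredoxin-like oxidoreductase of the ER, rose to 2660 and 3040 in the knock-down, against 1945.5 and 2088 in the control (log2 0.49, adjusted p = 0.0490). Its second probe set gave 0.48. Mcfd2, the partner of the cargo receptor LMAN1 in export from the ER, fell to 1121 and 1297 in the knock-down, against 2018 and 2233 in the control (log2 -0.81, interval -1.10 to -0.52, adjusted p = 0.0037). Creb3l3, an ER-tethered transcription factor best known from liver, fell to 67.9 and 197 in the knock-down, against 332 and 313 in the control (log2 -1.34, adjusted p = 0.0405). Knock-down replicate 1 lay in the background range, just under the limit, so that setting it to the limit left the difference of the log2(signal + 16) means at 2.51-fold; that mean rests on 2 knock-down arrays far apart. Tmx1 did not pass without knock-down replicate 2 (adjusted p = 0.148), control replicate 1 (0.284) or control replicate 2 (0.101), nor Creb3l3 without knock-down replicate 1 (log2 -0.67, adjusted p = 0.123).

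Among the chaperone genes outside the ER, Chordc1, a zinc-binding co-chaperone of HSP90, fell to 563 and 673 in the knock-down, against 1152.5 and 1196 in the control. It had the smallest adjusted p of the 199 (log2 -0.91, interval -1.24 to -0.59, adjusted p = 0.0031). Pfdn4, a subunit of the prefoldin complex that delivers actin and tubulin to the chaperonin, rose to 1730 and 2188 in the knock-down, against 1127 and 1376.5 in the control (log2 0.64, adjusted p = 0.0321). Atg12, a ubiquitin-like protein of autophagy on the ATF4 list, fell to 346 and 301 in the knock-down, against 512 and 564.5 in the control (log2 -0.71, adjusted p = 0.0405), and another probe set of the gene gave -1.13. Pfdn4 did not pass without knock-down replicate 2 (0.0868) or control replicate 1 (0.222), nor Atg12 without knock-down replicate 2 (0.0739), control replicate 1 (0.0774) or control replicate 2 (0.193). Mcfd2 and Chordc1 passed with each of the 4 arrays left out in turn. None of the 8 related genes passed without the filter on dim probe sets (adjusted p between 0.0547 and 0.295) or without the variance trend (0.1001 to 0.371).

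**Figure D5:**
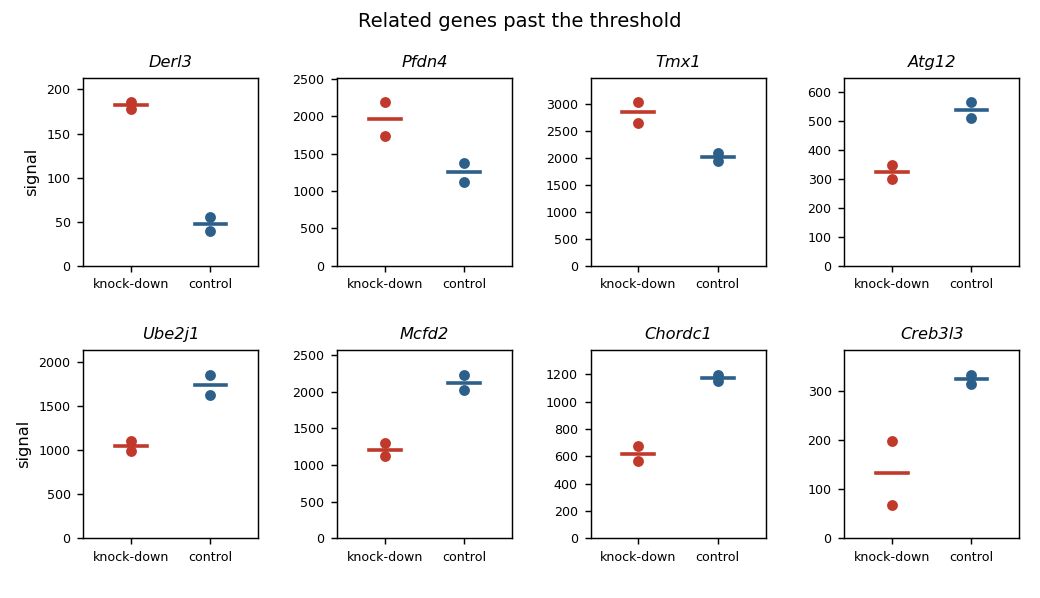
Signal (y axis, linear, from 0) of the 8 related genes that passed the test, with points for the 2 cultures of each group and a bar for their mean, knock-down in red on the left and vector control in blue on the right. In each gene the groups do not overlap, with Derl3, Pfdn4 and Tmx1 higher and the other 5 lower in the knock-down.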

How the data were processed

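Each array came as a deposited table of linear intensity per probe set; the submitters' processing notes name MAS5 and GCOS, while versions and the scaling between arrays are not stated there. The annotation pairs 34945 of 45101 probe sets with a single gene, 932 with several and 9160 with none, and 64 are controls. Names were updated by gene identifier from RefSeq (34741 matched).

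Signals were used as log2(signal + 16), which understates changes of dim genes. Probe sets in the upper 60% of mean signal (above 57.3) were kept. One probe set per gene was tested with limma 3.58.1 in R 4.3.3 (lmFit, eBayes with a variance trend, 2 residual and 13.8 prior degrees of freedom), with Benjamini-Hochberg adjustment over 12866 genes. An exact permutation test of 2 against 2 cannot give a p under 0.333. The background limit of an array was the 95th percentile over its 27 probe sets for bacterial RNAs. For Sfmbt1, Hspa1a, Derl3 and Creb3l3, with an array at or below it, a fold with that array at its limit is given. The number of arrays limits the precision.

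Members and lists were chosen with earlier results of these data known. Values by array are given for called members, the 10 others with the largest differences, and Hspa5, Ddit3, Atf4, Xbp1, Hspa1a, Hspa1b and Hspa8; of each related list, up to 5 called genes in each direction are named. Further genes and probe sets were given after their values were seen. The test was tried on simulated data. Alternatives were other pseudocounts and filters, no variance trend, median centring, quantile normalization and every probe set. Others were the mean over probe sets, the replicate block, each array left out, and no probe sets with names ending in s_at, x_at or a_at. The last of these left 32 members tested.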

Additional observations from a re-analysis of the deposited data

How the results depend on the processing

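Under 15 alternatives 31 of the 38 members were called in none. The other 7 were called in at least 1. The upper 40% filter called 1 member higher (Atf3, adjusted p = 0.0182) and 1 lower (Pdia6, 0.0359), quantile normalization 2 lower (Chac1 and Dnajb1), and the replicate block 1 lower (Pdia6, 0.0231). Leaving out 1 array gave 0 to 2 members higher and 0 to 1 lower. The median over the members stayed between -0.05 and 0.09. Signs changed in 31 of 563 member values, in 17 members, none of them past the threshold; Dnajc3 gave 0.26 as a mean over probe sets and Trib3 0.19 without knock-down replicate 1. For related genes (3 higher and 5 lower) the counts were 0 and 0 both without the filter and without the variance trend; 5 higher with the upper 40% filter; 8 and 3 with median centring; 5 and 3 with quantile normalization; 1 and 3 with every probe set and with the mean over probe sets; 6 higher with the replicate block; and 1 to 3 higher and 3 to 8 lower with 1 array left out. For all genes the counts were 23 and 32 without the filter (2064 at an unadjusted p under 0.05), 0 and 0 without the trend (1501 unadjusted), 285 and 322 with the upper 40% filter, 374 higher with median centring, 328 lower with every probe set, 97 and 120 with the mean over probe sets, and 140 to 405 higher and 123 to 468 lower with 1 array left out (405 without knock-down replicate 1, 468 without knock-down replicate 2, 123 without control replicate 2). The share of calls that were higher was 47.2% as reported, 63.2% with median centring, and 59.6%, 26.3% and 63.4% without knock-down replicate 1, knock-down replicate 2 and control replicate 2. The cause of these changes was not tested. The mean over probe sets was added after the data were seen. Deviations of the same-numbered cultures correlated at r = 0.01 over genes, which cannot show whether those cultures were handled together. The replicate block moved the calls over all genes to 276 higher and 270 lower. Where leaving out an array left 1 in a group, that array was assumed to vary like the other group. Hspa1a, near the background range, had the widest interval among the brightest probe sets of the members.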
